A study of Mus musculus with 39 samples.

Results

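Liver RNA of mice whose hepatocytes lack Hif1a was compared with that of Alb-Cre control mice at 21% oxygen, at circadian time 4 (CT4, in the rest phase of mice). The comparison holds all libraries with these labels, 3 of HLKO livers and 3 of Alb livers, 6 of the 36 libraries in the count table, and covers 11873 genes, of which 9483 passed the filter on low counts. HLKO mice have the genotype Alb-Cre+ Hif1afl/fl and Alb mice the genotype Alb-Cre. Both groups are C57BL/6 and were 3 to 5 months old, kept 2 weeks in 12 h of light and 12 h of darkness a day with food at will. On the day of the experiment the lights stayed off, and the mice breathed 21% oxygen for 4 h, from CT4 to CT8. Further libraries, of mice at CT16, mice that breathed 6% oxygen and mice lacking Bmal1 in hepatocytes (BLKO), are used where stated. CT4 and CT16 name the start of the 4 h, which ended at CT8 and CT20, so levels given below for CT4 or CT16 are not levels at the start. Cre in these mice is driven by the albumin promoter, which is active in hepatocytes, so other liver cells keep Hif1a. All groups carry Cre, and the labels do not state sex, litter, or whether Alb mice carry a floxed allele.

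HIF-1 alpha, the protein of Hif1a, is made all the time and is broken down when oxygen is plentiful. Prolyl hydroxylases (Egln1, Egln2 and Egln3) mark it for the von Hippel-Lindau ubiquitin ligase (Vhl), and the asparaginyl hydroxylase Hif1an blocks its activation domain. When oxygen falls it escapes this marking, pairs with Arnt and binds DNA at a short core, ACGTG, near genes of glycolysis, mitophagy and blood vessel growth. Epas1 encodes HIF-2 alpha, the sister subunit. In liver, oxygen is lower around the central vein than around the portal tract, and HIF proteins have been tied to lipid handling, iron uptake and zonation. The comparison at 21% oxygen asks how the liver differs without hepatocyte Hif1a when no hypoxia is imposed.

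The 3 HLKO libraries held 2017236, 2996656 and 2954857 counts and the 3 Alb libraries 2758177, 3027325 and 3223439 counts. The 10 genes with the most counts took 19.5% to 20.8% of counts in HLKO livers and 16.4% to 18.5% in Alb livers. Library Alb A stood apart from its group, with a chi-square per degree of freedom of 21.46 against Alb B and 19.73 against Alb C, while B and C differed by 5.326 and the HLKO libraries among themselves by 4.999 to 5.914. Hepatocyte markers (12 of 12 in the table) summed to 92368 to 102321 CPM (counts of a gene scaled to library size by TMM) in HLKO livers and 78858 to 94543 CPM in Alb livers, so both groups read as liver. Kupffer cell markers (13 genes) summed to 211 to 331 CPM in HLKO livers and 192 to 340.03 CPM in Alb livers. Endothelial markers (17 genes) summed to 267 to 281 CPM in HLKO livers and 239 to 289 CPM in Alb livers, and stellate markers (12 genes) to 217 to 276 CPM in HLKO livers and 110.5 to 293 CPM in Alb livers. Levels below are given as the CPM of libraries A, B and C in that order, and changes as log2 fold changes of HLKO over Alb ± SE, with two-sided adjusted p-values from edgeR. In bulk tissue, fewer cells of a type and less RNA per cell cannot be told apart.

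Loss of Hif1a in hepatocytes went with a broad change at CT4. In all, 921 genes (9.71% of those tested) passed an adjusted p of 0.05, 389 (4.1%) higher and 532 (5.61%) lower in HLKO livers, with a median absolute change of 0.802 on the log2 scale. Over 2-fold, 104 were higher and 217 lower. The libraries of both groups did not overlap in 2900 tested genes (30.6%) and in 886 of the called ones. With each of the 6 libraries left out in turn, 183 genes (1.93%) kept their call and direction, 81 higher (0.854%) and 102 lower (1.08%). These are referred to below as kept in all 6 refits. The count was 277 without Alb B, and 444, 453 and 445 without HLKO A, B and C.

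Counts of the targeted gene did not separate the groups. Hif1a (chr12:73901324-73947554, GRCm38) was at 3.35, 4.44 and 7.92 CPM in HLKO livers and 9.88, 9.44 and 5.48 CPM in Alb livers. HLKO C was above Alb C, the groups overlapped, and the difference did not pass the test (-0.61 ± 0.45, 95% interval -1.49 to 0.27, adjusted p = 0.409). The count is per gene, and the labels do not say which exons are removed, so it does not read the deletion itself. Of 8 tested HIF subunits and oxygen sensors, Hif1a included, 0 passed the test in edgeR and 0 in DESeq2, 2 had an unadjusted p under 0.05, and the lowest adjusted p, 0.0608, belonged to Hif1an. Hif1an was at 19.1, 20.9 and 19.5 CPM in HLKO livers and 11.3, 12.5 and 15.8 CPM in Alb livers. All 3 HLKO libraries lay above all Alb libraries (0.58 ± 0.20). Epas1 was at 151, 144 and 119.7 CPM in HLKO livers and 156, 123 and 122 CPM in Alb livers, with a change of 0.05 ± 0.13 (adjusted p = 0.837). Arnt was at 20.1, 25.98 and 27.1 CPM in HLKO livers and 15.2, 17.1 and 21.9 CPM in Alb livers (0.44 ± 0.19, adjusted p = 0.139), and the groups overlapped in both genes. The log2 fold changes of the prolyl hydroxylases were -0.25 ± 0.17 (Egln1), -0.01 ± 0.14 (Egln2) and -0.42 ± 0.27 (Egln3), and that of Vhl 0.01 ± 0.26, with adjusted p-values of 0.389, 0.965, 0.345 and 0.992.

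Among 30 tested HIF targets outside glycolysis, 1 rose and 2 fell (3.33% and 6.67%, near the 4.1% and 5.61% of all tested genes), with a median of -0.243 against -0.001 for all tested genes. Bnip3l, a mitophagy receptor of the outer mitochondrial membrane, was at 6.70, 4.12 and 5.28 CPM in HLKO livers and 11.3, 12.2 and 11.6 CPM in Alb livers. Every HLKO library was below every Alb library (-1.15 ± 0.35, adjusted p = 0.0365). Ppp1r3b, which targets protein phosphatase 1 to glycogen, was at 37.4, 43.1 and 57.7 CPM in HLKO livers and 81.2, 91.1 and 69.2 CPM in Alb livers, again with no overlap (-0.80 ± 0.21, adjusted p = 0.0175). Trf, the plasma iron carrier transferrin, was at 16769.8, 16085 and 17371 CPM in HLKO livers and 13807, 10314 and 11884 CPM in Alb livers. It was higher in all HLKO libraries (0.48 ± 0.14, adjusted p = 0.0289). None of the 3 was kept in all 6 refits. Bnip3l lost its call whichever of the 6 libraries was left out (adjusted p 0.0537 to 0.144). Ppp1r3b was not called without HLKO A, HLKO B and Alb B (adjusted p up to 0.0977). Trf was not called without HLKO A, HLKO B, HLKO C, Alb B and Alb C (adjusted p up to 0.168), nor with only the compared groups fitted (adjusted p = 0.0518). Vegfa, the endothelial growth factor, was at 133, 126 and 143 CPM in HLKO livers and 109.8, 123 and 133 CPM in Alb livers, with overlapping groups (0.14 ± 0.21, adjusted p = 0.73). Of 20 tested genes of glycolysis and glucose uptake, 0 passed the test in edgeR and 2 in DESeq2, 9 had an unadjusted p under 0.05, and their median was 0.057. Gapdh in that list was at 838, 40.9 and 32.00 CPM in HLKO livers and 31.4, 35.9 and 32.6 CPM in Alb livers. Only HLKO A was high, and the fitted value was 3.17 ± 1.16 (adjusted p = 0.0765).

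**Figure D1:**
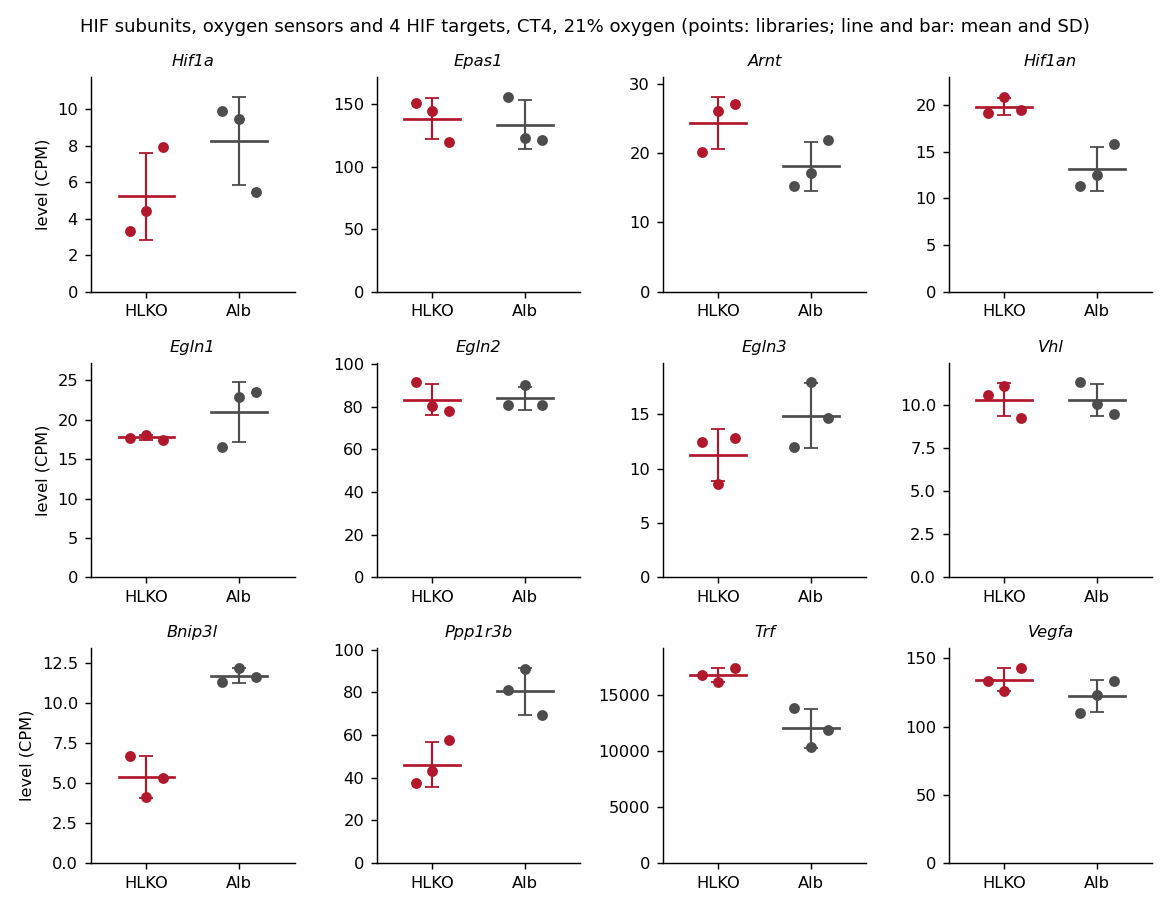
Levels in CPM (y axis, from 0, one scale per gene) of the 8 tested HIF subunits and oxygen sensors and of 4 HIF targets in the 3 HLKO and 3 Alb libraries at CT4 and 21% oxygen; points are libraries A, B and C from left to right, and the line and bar give mean and SD. The groups overlap for Hif1a, Epas1 and Arnt, while Bnip3l sits at 4.12 to 6.70 CPM in HLKO livers and 11.3 to 12.2 CPM in Alb livers.

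The HIF core was then read in the 250 bases before the start of each gene (RefSeq, GRCm38.p6), which the promoter table gives for 7650 of the tested genes. ACGTG on either strand stood in 21.4% of 313 promoters of genes higher in HLKO livers and 20.9% of 431 of genes lower there, against 22.9% of all 7650. Among genes kept in all 6 refits it stood in 16.9% of 65 higher and 20.3% of 79 lower promoters. The HIF target list held it in 11 of 21 promoters (52.4%) and the glycolysis list in 6 of 18 (33.3%), although few or 0 genes of these lists passed the test. The E-box CACGTG, which contains ACGTG, stood in 7.35% of higher, 9.51% of lower and 9.07% of all promoters. The D-box TTATGTAA was found in 0.319%, 1.16% and 0.497%, and a direct repeat of AGGTCA with 1 base between, bound by PPARA, in 0 of the called and 2 of all promoters. Printed here are stretches of 80 bases around the single match in 5 promoters, with the core in capitals as read on the gene's strand (CACGT is ACGTG on the other strand): 2 oxygen sensors that did not pass the test, 1 gene that rose, 1 that fell and 1 whose direction differed with the time of day. They are Egln1 (chr8:124949285-124949364, minus strand, match 68 bases before the start), Egln3 (chr12:54204045-54204124, minus strand, 229 bases before), Gdpd3 (chr7:126766264-126766343, plus strand, 110 bases before), Selenbp2 (chr3:94693327-94693406, plus strand, 206 bases before) and Tat (chr8:109990204-109990283, plus strand, 192 bases before).
Egln1: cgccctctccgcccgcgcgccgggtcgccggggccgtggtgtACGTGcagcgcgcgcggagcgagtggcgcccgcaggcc
Egln3: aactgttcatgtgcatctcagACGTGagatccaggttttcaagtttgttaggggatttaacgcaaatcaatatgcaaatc
Gdpd3: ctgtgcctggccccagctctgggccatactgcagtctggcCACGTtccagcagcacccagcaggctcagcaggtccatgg
Selenbp2: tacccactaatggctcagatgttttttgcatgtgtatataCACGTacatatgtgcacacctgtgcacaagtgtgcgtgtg
Tat: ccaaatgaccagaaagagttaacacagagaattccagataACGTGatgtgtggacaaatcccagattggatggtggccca

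Among genes kept in all 6 refits, averaging 5 CPM or more in either group and with no overlap between groups, those with the largest increases were mostly low in Alb livers. Serpina3c, a mouse serine protease inhibitor related to antichymotrypsin, was at 533, 683 and 482 CPM in HLKO livers and 6.00, 10.4 and 4.27 CPM in Alb livers (6.35 ± 0.39, adjusted p = 2.95e-13). Its neighbour Serpina3h was at 13.4, 18.1 and 20.8 CPM in HLKO livers and 0.706, 0.305 and 0.609 CPM in Alb livers (4.95 ± 0.51, adjusted p = 1.81e-07). Abhd1, which encodes a protein with an alpha/beta hydrolase fold, was at 118, 103 and 133 CPM in HLKO livers and 5.29, 3.35 and 5.79 CPM in Alb livers (4.61 ± 0.51, adjusted p = 4.69e-07). In each of these genes the lowest HLKO library was many times above the highest Alb library. Gdpd3, a glycerophosphodiesterase that acts on lysophospholipids, was at 34.5, 50.1 and 72.9 CPM in HLKO livers and 3.88, 1.52 and 2.44 CPM in Alb livers (4.35 ± 0.58, adjusted p = 8.05e-06). Prok1, a secreted prokineticin, was at 23.5, 28.5 and 22.8 CPM in HLKO livers and 7.77, 1.83 and 3.05 CPM in Alb livers, so that Alb A was the highest of its group and still below every HLKO library (2.60 ± 0.39, adjusted p = 4.87e-05). Cyp21a1, the steroid 21-hydroxylase, was at 21.1, 7.92 and 20.4 CPM in HLKO livers and 2.12, 3.35 and 1.52 CPM in Alb livers (2.78 ± 0.60, adjusted p = 0.0047). The transcript 1810064F22Rik, the ephrin receptor Ephb6, the proton pump subunit Atp6v0e2 and the proteoglycan Cspg5 rose by 4.79, 3.74, 3.22 and 3.08, from Alb means of 0.235 to 1.08 CPM. Mup21, a major urinary protein, changed the most counts among these: it was at 1915, 2232 and 2050.4 CPM in HLKO livers and 308, 356 and 583 CPM in Alb livers (2.31 ± 0.35, adjusted p = 5.58e-05). Mup genes are close copies of each other, as are the genes of the Serpina1, Serpina3, Mug, Trim12, Cyp4a and glutathione transferase families, so values of single members are uncertain where reads were shared among copies.

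By the same rule, several of the largest decreases left few or no counts. Trim12a, a tripartite motif protein of an antiviral gene family, had 0 counts in the 3 HLKO libraries and 89 counts in the 3 Alb libraries, where it was at 10.6, 7.61 and 10.4 CPM. Against a floor of 3 counts over the HLKO group (0.362 CPM) it was at least 26.3-fold lower (adjusted p = 1.61e-06). Gt(ROSA)26Sor, the transcript of the Rosa26 locus, was at 0, 0 and 0.330 CPM in HLKO livers and 4.24, 6.70 and 5.18 CPM in Alb livers (-5.10 ± 0.93, adjusted p = 0.000885). In this gene 2 of 3 HLKO libraries held no count. Mug2, a murinoglobulin that traps proteases in plasma, was at 22.03, 16.8 and 13.2 CPM in HLKO livers and 294, 264 and 339 CPM in Alb livers (-4.13 ± 0.54, adjusted p = 6.49e-06). Selenbp2, a selenium-binding protein, was at 97.2, 95.4 and 87.1 CPM in HLKO livers and 1489, 650.0 and 809 CPM in Alb livers (-3.40 ± 0.71, adjusted p = 0.0037), with HLKO libraries close together and Alb A the highest. Clstn3 was at 0.479, 3.17 and 2.64 CPM in HLKO livers and 9.53, 37.5 and 32.6 CPM in Alb livers, and Alb A was well below Alb B and C (-3.54 ± 0.56, adjusted p = 0.000108). The translation regulator Cpeb2 was at 0.479, 0.634 and 0.660 CPM in HLKO livers and 6.71, 10.4 and 3.66 CPM in Alb livers (-3.44 ± 0.76). The locus Urml was at 1.44, 15.5 and 12.9 CPM in HLKO livers and 73.4, 68.5 and 59.7 CPM in Alb livers (-2.66 ± 0.31). The transcript 5033406O09Rik was at 0, 0.317 and 0.990 CPM in HLKO livers and 7.41, 7.01 and 9.75 CPM in Alb livers (-3.96 ± 0.83). Every gene named in this and the preceding paragraph was kept in all 6 refits. In BLKO livers at the same time and oxygen, which share the Alb controls, Trim12a averaged 0.156 ± 0.270 CPM, Clstn3 2.36 ± 1.06 CPM, Serpina3c 4.76 ± 0.926 CPM and Mug2 602 ± 19.2 CPM (SD, n = 3). These 4 were picked after their values were seen, and the levels are given with no test.

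The alpha-1-antitrypsin, Serpina3 and murinoglobulin families changed in both directions. Of 20 tested members 4 rose and 5 fell (20% and 25%, against 4.1% and 5.61% of all genes), of which 3 and 4 were kept in all 6 refits, and over those refits 3 to 4 rose and 4 to 5 fell. Serpina1e, one of 5 mouse copies of the elastase inhibitor alpha-1-antitrypsin, was at 1242, 994 and 1219 CPM in HLKO livers and 18306, 9721 and 13507 CPM in Alb livers (-3.59 ± 0.41, adjusted p = 5.75e-07). Serpina1d was at 2292, 1890.4 and 2219 CPM in HLKO livers and 4929, 4849 and 5630.0 CPM in Alb livers (-1.27 ± 0.17, adjusted p = 6.09e-06). Both were lower in every HLKO library. The summed level of the 5 copies was 28582, 31993 and 34467 CPM in HLKO livers and 45142, 31716 and 41319 CPM in Alb livers, which overlap. Serpina1e made up 4.34%, 3.11% and 3.54% of that sum in HLKO livers and 40.6%, 30.7% and 32.7% in Alb livers. Serpina1c was at 11929, 15002 and 17008 CPM in HLKO livers and 9403, 5797 and 9318 CPM in Alb livers (0.84 ± 0.25, adjusted p = 0.0298), a call lost without HLKO B, HLKO C and Alb B (adjusted p up to 0.185). Serpina3m was at 76.1, 58.3 and 51.5 CPM in HLKO livers and 332, 245 and 226 CPM in Alb livers (-2.12 ± 0.23, adjusted p = 2.43e-07), with no overlap. Serpina11 was at 562, 617 and 481 CPM in HLKO livers and 222, 129 and 141 CPM in Alb livers (1.75 ± 0.19, adjusted p = 2.43e-07), higher in every HLKO library. Serpina3g moved by -1.99 ± 0.51 (adjusted p = 0.0142), and lost its call without HLKO B, HLKO C and Alb C (adjusted p up to 0.103). Serpina1c, Serpina11 and Serpina3g fall outside the rule for named genes and were added after their values were seen.

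These Serpina genes lie together on chromosome 12, the chromosome of Hif1a, about 30 Mb beyond it. On chromosome 12, 47 of 332 tested genes were called (14.2%, against 9.71% of all), and 21 were kept in all 6 refits (6.33%, against 1.93%), 9 of them in the window 30 to 40 Mb after Hif1a that holds most of the Serpina cluster. Within 10 Mb of Hif1a, 6 of 74 other tested genes were called (8.11%, against 9.71% of all genes), 2 before it and 4 after it. Kept in all 6 refits, against 1.93% of all genes, were 1 of 32 genes up to 5 Mb before it and 3 of 25 genes 5 to 10 Mb after it. Of 16 genes up to 5 Mb after it and 1 gene 5 to 10 Mb before it, 0 were kept. Rad51b, a recombination repair gene 5.40 Mb after Hif1a, was at 23.5, 12.7 and 18.1 CPM in HLKO livers and 4.94, 2.13 and 4.27 CPM in Alb livers (2.24 ± 0.31, adjusted p = 1.36e-05). L3hypdh, a dehydratase of hydroxyproline metabolism 1.83 Mb before it, was at 12.9, 12.4 and 10.2 CPM in HLKO livers and 26.5, 32.6 and 31.99 CPM in Alb livers (-1.37 ± 0.18, adjusted p = 5.93e-06). Rdh11, a retinol dehydrogenase 5.27 Mb after it, was at 16.8, 16.5 and 15.2 CPM in HLKO livers and 38.8, 45.1 and 36.9 CPM in Alb livers (-1.32 ± 0.29, adjusted p = 0.0055). In these 3 genes, and in the actin crosslinker Actn1 (0.74 ± 0.14, adjusted p = 0.00166), the groups did not overlap and the call was kept in all 6 refits. The phosphatase Ppm1a (-0.42 ± 0.11, adjusted p = 0.0193) lost its call without HLKO A, HLKO C and Alb B (adjusted p up to 0.0971), and the splicing factor Srsf5 (0.46 ± 0.12, adjusted p = 0.0142) without HLKO B (adjusted p up to 0.0585). Ahr, the dioxin receptor, 38.4 Mb before Hif1a, was at 1.44, 2.22 and 2.64 CPM in HLKO livers and 12.3, 11.3 and 11.3 CPM in Alb livers (-2.40 ± 0.41, adjusted p = 0.000343), about as low in all 3 HLKO libraries. Whether sequence linked to the floxed allele takes part in these differences was not tested.

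**Figure D2:**
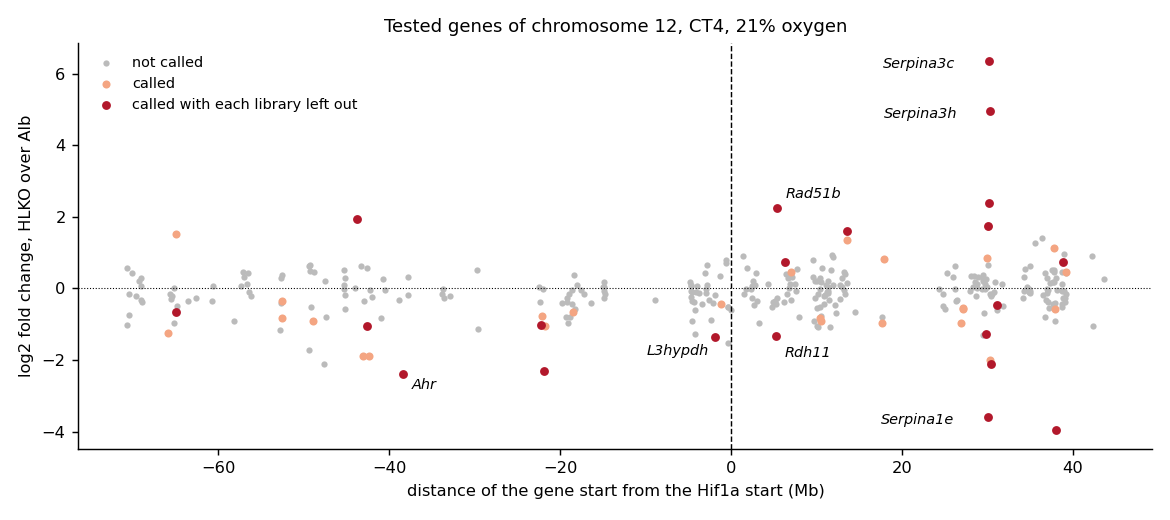
Log2 fold change of HLKO over Alb (y axis) of the 332 tested genes of chromosome 12 by the distance of their start from the start of Hif1a in Mb (x axis, dashed line at Hif1a). Grey points were not called, pale points were called, and dark points were also called with each library left out; the dark points of the Serpina cluster stand in one column near 30 Mb, at values from -3.59 (Serpina1e) to 6.35 (Serpina3c).

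Genes of fatty acid oxidation that passed the test were nearly all lower in HLKO livers. PPARA is the nuclear receptor that drives this pathway in fasting liver. Of 39 tested PPARA targets and oxidation genes, 13 fell and 1 rose (33.3% and 2.56%, against 5.61% and 4.1% of all genes), and the median was -0.397 against -0.001. Acaa1b, the peroxisomal thiolase, was at 755, 875 and 916 CPM in HLKO livers and 1149, 2646 and 2856 CPM in Alb livers (-1.39 ± 0.26, adjusted p = 0.00103). It was kept in all 6 refits, though Alb A was the lowest Alb library. Cyp4a10, a fatty acid omega-hydroxylase, was at 8.62, 8.87 and 20.1 CPM in HLKO livers and 39.9, 287 and 158 CPM in Alb livers (-3.66 ± 0.91, adjusted p = 0.0117). Cyp4a14, its relative, was at 1.44, 4.75 and 0.660 CPM in HLKO livers and 8.82, 164 and 44.5 CPM in Alb livers (-4.90 ± 1.47, adjusted p = 0.0321). The Alb libraries spread over a wide range in these genes, with Alb B the highest and Alb A the lowest, and Alb A was still above every HLKO library. The fatty acid transporter Cd36 was at 0, 0 and 0.660 CPM in HLKO livers and 1.41, 5.79 and 3.66 CPM in Alb livers (-3.74 ± 1.11, adjusted p = 0.0307). Fabp1, the fatty acid binding protein of hepatocytes, was the 1 member that rose, at 11418, 10319 and 13577 CPM in HLKO livers and 6597, 9034 and 8200.1 CPM in Alb livers (0.57 ± 0.14, adjusted p = 0.0121). Cyp4a10 lost its call without HLKO A, HLKO B and Alb B (adjusted p up to 0.0791). Cyp4a14 was not called without HLKO A, HLKO B, HLKO C and Alb B (adjusted p up to 0.239). Cd36 was not called without HLKO A, HLKO B and Alb B (adjusted p up to 0.156). Fabp1 was not called without HLKO C and Alb A (adjusted p up to 0.079). The count of members that fell was 14, 2 and 12 without Alb A, B and C, and 5, 4 and 7 without HLKO A, B and C.

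Genes of cholesterol synthesis were also lower where they passed the test. SREBP-2 turns on this pathway when sterols are scarce. Of 24 tested members 5 fell (20.8%, against 5.61% of all genes) and 0 rose, with a median of -0.506, and 3 to 6 fell over the 6 refits. Hmgcs1, which makes HMG-CoA, was at 333, 301 and 343 CPM in HLKO livers and 830.5, 706 and 997 CPM in Alb livers (-1.37 ± 0.23, adjusted p = 0.000272). Msmo1, a sterol demethylase, was at 33.5, 21.6 and 26.1 CPM in HLKO livers and 129.9, 65.5 and 53.9 CPM in Alb livers (-1.63 ± 0.34, adjusted p = 0.00322). Acat2, which makes acetoacetyl-CoA, was at 29.2, 23.4 and 26.1 CPM in HLKO livers and 58.6, 53.3 and 53.3 CPM in Alb livers (-1.08 ± 0.25, adjusted p = 0.00778). The groups did not overlap in these 3 genes, and they were kept in all 6 refits. In fatty acid and triglyceride synthesis 1 of 19 rose (5.26%, against 4.1% of all genes) and 2 fell (10.5%, against 5.61%), with a median of -0.172. Scd1, the stearoyl-CoA desaturase, was at 1234, 1069 and 792 CPM in HLKO livers and 2365, 3230.1 and 3291 CPM in Alb livers (-1.52 ± 0.34, adjusted p = 0.00605). Mlxipl, which encodes the sugar-sensing factor ChREBP, was at 332, 329 and 295 CPM in HLKO livers and 175, 211 and 228 CPM in Alb livers (0.64 ± 0.13, adjusted p = 0.0037). Both had no overlap between groups and moved in opposite directions. Fasn, the fatty acid synthase, moved by -1.01 ± 0.33 (adjusted p = 0.0495) and lost its call without HLKO A, HLKO B, HLKO C, Alb B and Alb C (adjusted p up to 0.212). It also lost it with only the compared groups fitted (adjusted p = 0.0579) and without the filter (adjusted p = 0.0578). Apoa1, the main protein of HDL, was at 14872, 14826 and 12224 CPM in HLKO livers and 10356, 8042 and 9237 CPM in Alb livers (0.60 ± 0.13, adjusted p = 0.00423). Of 17 apolipoprotein and lipoprotein assembly genes it was the 1 that rose (5.88%, against 4.1% of all genes), and 2 fell (11.8%, against 5.61%). Those 2 were Apob (-1.255 ± 0.298, adjusted p = 0.00839) and Pltp (-1.547 ± 0.495, adjusted p = 0.0436), and neither was kept in all 6 refits.

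**Figure D3:**
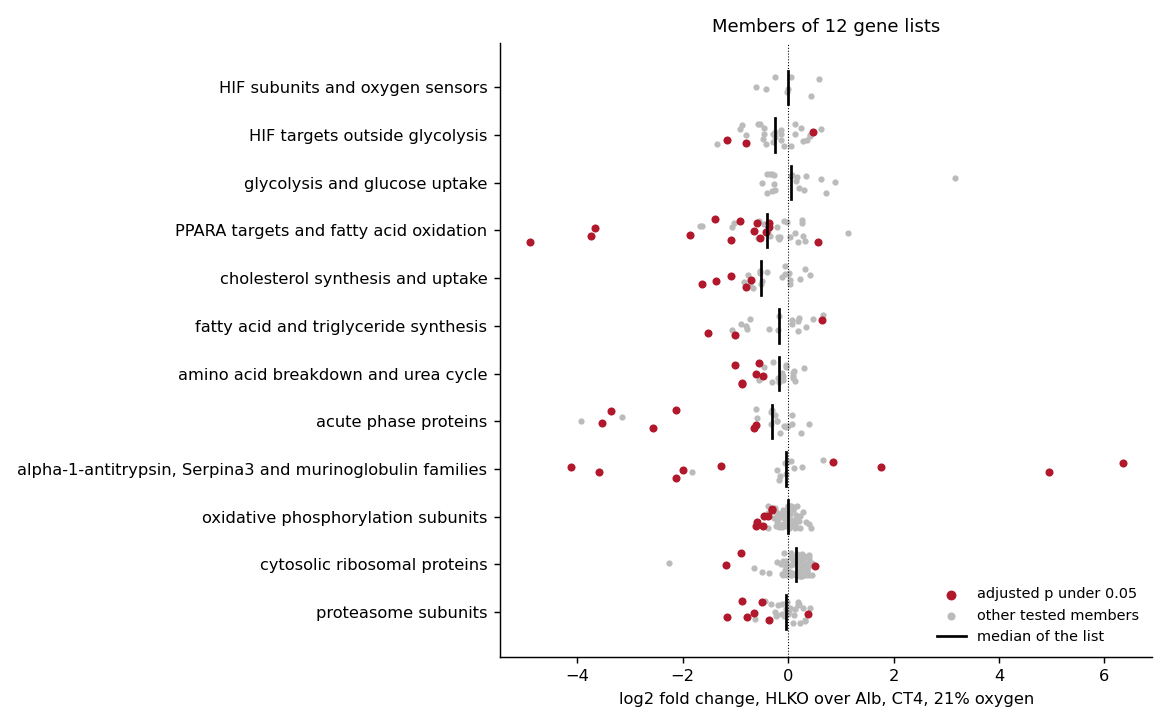
Log2 fold change of HLKO over Alb (x axis) of the tested members of 12 of the gene lists (y axis); dark points passed an adjusted p of 0.05, grey points did not, and black bars are list medians. Of the 12 medians drawn, those of the PPARA list (-0.397) and the cholesterol list (-0.506) lie furthest below 0, while dark points of the Serpina and murinoglobulin families reach from -4.13 to 6.35.

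In bile acid synthesis and transport 1 of 17 members rose (5.88%, against 4.1% of all genes) and 3 fell (17.6%, against 5.61%), with a median of -0.024. Akr1d1, a reductase of the bile acid pathway, was at 72.8, 59.2 and 64.3 CPM in HLKO livers and 93.5, 163 and 143 CPM in Alb livers (-1.03 ± 0.22, adjusted p = 0.00469). Baat, which joins bile acids to taurine or glycine, was at 258, 240.5 and 253 CPM in HLKO livers and 360.0, 346 and 312 CPM in Alb livers (-0.44 ± 0.10, adjusted p = 0.00749). Both were lower in all HLKO libraries and kept in all 6 refits. Cyp8b1, the sterol 12-alpha-hydroxylase, moved by -0.76 ± 0.22 (adjusted p = 0.029) and lost its call without HLKO A, HLKO B, HLKO C, Alb B and Alb C (adjusted p up to 0.132). The uptake transporter Slco1a1 moved by 0.55 ± 0.16 (adjusted p = 0.0276) and lost its call without HLKO B, HLKO C, Alb A and Alb B (adjusted p up to 0.19), and with only the compared groups fitted (adjusted p = 0.0623).

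In nitrogen metabolism, 6 of 23 genes of amino acid breakdown and the urea cycle fell (26.1%, against 5.61% of all genes) and 0 rose, with a median of -0.169. The count that fell was 7, 1 and 6 without Alb A, B and C and 4, 3 and 3 without HLKO A, B and C. Tat, the tyrosine aminotransferase, a glucocorticoid target, was at 894, 569 and 692 CPM in HLKO livers and 1505, 1154 and 1275 CPM in Alb livers (-0.87 ± 0.18, adjusted p = 0.00369). It was lower in every HLKO library and the only member kept in all 6 refits. Of the tryptophan pathway, Tdo2 moved by -0.60 ± 0.16, Kmo by -1.0 ± 0.24 and Kynu by -0.88 ± 0.22 (adjusted p = 0.0168, 0.00945 and 0.0114). Tdo2 lost its call without HLKO C and Alb B (adjusted p up to 0.192). Kmo was not called without HLKO A and Alb B (adjusted p up to 0.0516). Kynu was not called without HLKO B and Alb B (adjusted p up to 0.0692). In gluconeogenesis 2 of 11 fell (18.2%, against 5.61% of all genes) and 0 rose, and over the 6 refits 0 to 1 fell. Pck1, the gatekeeper enzyme of that pathway, was at 1998, 1898 and 1846 CPM in HLKO livers and 3167, 2286 and 2841 CPM in Alb livers (-0.53 ± 0.17, adjusted p = 0.0405), and lost its call without HLKO A, HLKO B, HLKO C, Alb A and Alb C (adjusted p up to 0.139).

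Among zonation genes, 3 of 16 pericentral (18.8%) and 4 of 15 periportal ones (26.7%) fell, against 5.61% of all genes, and 0 of either list rose. The other members did not pass the test, and the list medians were -0.170 and -0.048. Glul, the glutamine synthetase of the cells next to the central vein, was at 17.2, 20.6 and 18.8 CPM in HLKO livers and 142, 143 and 34.7 CPM in Alb livers (-2.48 ± 0.49, adjusted p = 0.00229). Alb C was far below Alb A and B and still above the HLKO libraries. Aldh1a1, a retinaldehyde dehydrogenase, was at 392, 365 and 445 CPM in HLKO livers and 738, 984 and 893 CPM in Alb livers (-1.12 ± 0.19, adjusted p = 0.000343). Hsd17b13, a lipid droplet dehydrogenase, was at 113, 127 and 125 CPM in HLKO livers and 498, 448 and 414 CPM in Alb livers (-1.89 ± 0.26, adjusted p = 1.4e-05). These 3 were kept in all 6 refits. Over the refits, 2 to 4 pericentral and 1 to 3 periportal genes fell.

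Among 22 conjugation and NRF2 antioxidant genes 5 fell (22.7%, against 5.61% of all genes) and 1 rose (4.55%, against 4.1%), with a median of -0.365. Ugdh, which makes the sugar donor for glucuronidation, was at 63.7, 53.9 and 65.6 CPM in HLKO livers and 104, 191 and 138 CPM in Alb livers (-1.25 ± 0.24, adjusted p = 0.00173), and was kept in all 6 refits. The glutathione transferases Gsta2 and Gstt3 moved by -1.86 ± 0.45 and -1.58 ± 0.37 (adjusted p = 0.00931 and 0.00721), and Gstp1 by 1.09 ± 0.35 (adjusted p = 0.046). Gsta2 was not called without HLKO B and Alb B (adjusted p up to 0.0715). Gstt3 was not called without HLKO C (adjusted p up to 0.0523). Gstp1 lost its call whichever of the 6 libraries was left out (adjusted p 0.0715 to 0.144). Of 31 genes of P450 drug metabolism and its receptors 2 rose (6.45%, against 4.1% of all genes) and 3 fell (9.68%, against 5.61%), and Ahr was one of the 3.

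Of 17 tested genes of iron regulation 1 rose (5.88%, against 4.1% of all genes) and 4 fell (23.5%, against 5.61%), and over the 6 refits 1 to 3 fell. Hjv, the co-receptor that signals iron status to hepcidin, was at 22.03, 22.2 and 14.2 CPM in HLKO livers and 46.6, 43.6 and 38.1 CPM in Alb livers (-1.14 ± 0.19, adjusted p = 0.000273), with no overlap and a call kept in all 6 refits. Bmp6, its ligand, moved by -1.97 ± 0.52 and the ferroxidase Cp by -0.65 ± 0.19 (adjusted p = 0.0155 and 0.0287). Bmp6 lost its call without HLKO B, HLKO C and Alb B (adjusted p up to 0.11). Cp was not called without HLKO A, HLKO B, HLKO C and Alb A (adjusted p up to 0.287), nor with only the compared groups fitted (adjusted p = 0.0698). The red cell gene Alas2, the first enzyme of haem synthesis in erythroid cells, was at 69.4, 64.01 and 69.6 CPM in HLKO livers and 165, 170.3 and 219 CPM in Alb livers (-1.45 ± 0.30, adjusted p = 0.00303). Summed over the 2 red cell markers in the table, Alas2 and Slc4a1, the level was 64.6 to 70.9 CPM in HLKO livers and 169 to 224 CPM in Alb livers, and its part in the iron genes was not tested. Slc4a1 alone was at 0.479, 0.634 and 1.32 CPM in HLKO livers and 3.88, 0.914 and 4.57 CPM in Alb livers (-1.83 ± 0.68, adjusted p = 0.0824).

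Among markers of other cell types, cholangiocyte markers (6 genes in the table) summed to 35.9 to 41.9 CPM in HLKO livers and 53.3 to 75.2 CPM in Alb livers, with 0 of 3 tested genes called. Most of that sum was Spp1, with means of 28.5 CPM in HLKO livers and 54.2 CPM in Alb livers (adjusted p = 0.0977). Sox9 averaged 4.93 CPM in HLKO livers and 6.87 CPM in Alb livers (adjusted p = 0.409). Krt19 went the other way, at 1.87 CPM in HLKO livers and 1.53 CPM in Alb livers (adjusted p = 0.72). Cela1, an elastase made in pancreas and other epithelia, was at 123, 106 and 125 CPM in HLKO livers and 54.4, 59.4 and 54.2 CPM in Alb livers (1.07 ± 0.16, adjusted p = 6.83e-05). It is one of 3 pancreas markers in the table, and their sum was 108 to 128 CPM in HLKO livers and 56.1 to 60.9 CPM in Alb livers. Nearly all of that sum was Cela1 itself. Cela2a averaged 3.21 CPM in HLKO livers and 2.53 CPM in Alb livers (adjusted p = 0.795). Cfd, complement factor D and a marker of adipocytes, was at 0, 0.317 and 0.330 CPM in HLKO livers and 0, 13.7 and 17.98 CPM in Alb livers (-5.27 ± 1.55, adjusted p = 0.0321), so only Alb B and C were high, and its call was lost without HLKO A, HLKO B, HLKO C, Alb B and Alb C (adjusted p up to 0.0972). Of 36 tested complement and coagulation genes 1 rose (2.78%, against 4.1% of all genes) and 2 fell (5.56%, against 5.61%).

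Of 25 tested acute phase proteins 6 fell (24%, against 5.61% of all genes) and 0 rose, but only 1 fell without Alb A, and likewise without any 1 HLKO library. Lcn2, lipocalin 2, was at 13.4, 13.9 and 16.8 CPM in HLKO livers and 501, 5.48 and 14.9 CPM in Alb livers. Orm2, an orosomucoid, was at 7.66, 8.24 and 14.8 CPM in HLKO livers and 304, 6.40 and 17.1 CPM in Alb livers. Alb A alone was high in both, and Alb B was below every HLKO library. Their changes were -3.54 ± 1.15 and -3.37 ± 1.09 (adjusted p = 0.0466 and 0.0458), and without Alb A the change of Lcn2 was 0.53. With only the compared groups fitted, the adjusted p was 0.0976 for Lcn2 and 0.0851 for Orm2.

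Growth hormone signalling had 3 of 16 members higher (18.8%, against 4.1% of all genes) and 0 lower, with a median of -0.010 and none kept in all 6 refits. Socs2, the feedback inhibitor that STAT5 induces, was at 187, 321 and 243 CPM in HLKO livers and 85.8, 61.8 and 57.6 CPM in Alb livers (1.88 ± 0.52, adjusted p = 0.0217), a call lost without HLKO B, Alb B and Alb C (adjusted p up to 0.0896). Igfals, which holds IGF-1 in its circulating complex, moved by 0.56 ± 0.16 (adjusted p = 0.0245), and the carrier Igfbp3 by 0.85 ± 0.27 (adjusted p = 0.044). Igfals lost its call without HLKO B, HLKO C, Alb A and Alb B (adjusted p up to 0.121). Igfbp3 was not called without HLKO A, HLKO B, HLKO C, Alb A and Alb B (adjusted p up to 0.196), nor with only the compared groups fitted (adjusted p = 0.0682). Of 19 tested male-biased liver genes 3 rose (15.8%, against 4.1% of all genes) and 2 fell (10.5%, against 5.61%), Mup21 and Selenbp2 among them. Of 6 tested female-biased genes 0 passed the test in edgeR or DESeq2, with 0 at an unadjusted p under 0.05. The unfolded protein response had 2 of 27 higher and 2 lower (7.41% each, against 4.1% and 5.61% of all genes). The 2 lower were Pdia3 (-1.02 ± 0.27, adjusted p = 0.0151) and Canx (-0.93 ± 0.30, adjusted p = 0.0464), and neither was kept in all 6 refits. Xbp1, a transcription factor of that response, was at 620.1, 606 and 717 CPM in HLKO livers and 488, 324 and 349 CPM in Alb livers (0.74 ± 0.21, adjusted p = 0.0246). The secreted factor Manf was at 286, 379.9 and 433 CPM in HLKO livers and 250.2, 156 and 149.9 CPM in Alb livers (0.99 ± 0.32, adjusted p = 0.0442). Xbp1 lost its call without HLKO C, Alb B and Alb C (adjusted p up to 0.139). Manf was not called without HLKO A, HLKO B, HLKO C, Alb B and Alb C (adjusted p up to 0.179), nor with DESeq2, where its adjusted p was 0.0554.

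BMAL1 (Arntl) and CLOCK drive a set of clock genes that includes Nr1d1, Nr1d2, Dbp and Per1. REV-ERB alpha, the protein of Nr1d1, represses a different set, which includes Arntl itself. The 4 h of the CT4 groups ended at CT8. Arntl was at 1.44, 1.90 and 0.990 CPM in HLKO livers and 4.94, 6.09 and 2.44 CPM in Alb livers (-1.60 ± 0.48, adjusted p = 0.0321). Nr1d1 was at 184, 207 and 176 CPM in HLKO livers and 116, 70.05 and 134 CPM in Alb livers (0.83 ± 0.26, adjusted p = 0.0426). Nr1d2, the second REV-ERB, was at 3.83, 4.12 and 3.30 CPM in HLKO livers and 8.47, 14.01 and 5.79 CPM in Alb livers (-1.32 ± 0.43, adjusted p = 0.046). In all 3 the groups did not overlap. None was called without HLKO A, HLKO B, HLKO C, Alb A or Alb B, with adjusted p-values of up to 0.184 (Arntl), 0.242 (Nr1d1) and 0.305 (Nr1d2). With DESeq2 the call of Nr1d1 was lost as well (adjusted p = 0.0528) and Nr1d2 was given no adjusted p, and with only the compared groups Nr1d2 had an adjusted p of 0.0506, and one of 0.0556 without the filter. Of 13 tested clock genes driven by BMAL1, Nr1d1 rose and Nr1d2 fell in edgeR (7.69% each, against 4.1% and 5.61% of all genes), and 0 passed in DESeq2. Of 6 tested clock activators and REV-ERB repressed genes, 1 fell, Arntl (16.7%, against 5.61% of all genes), and 0 rose, with a median of -0.704. The output factor Dbp (0.70 ± 0.34, adjusted p = 0.177) and the repressor Per1 (0.34 ± 0.26, adjusted p = 0.424) did not pass the test.

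Among large complexes, of 70 oxidative phosphorylation subunits 7 fell (10%, against 5.61% of all genes) and 0 rose, with a median of -0.004. Sdhd, a subunit of succinate dehydrogenase, was at 117, 131 and 124 CPM in HLKO livers and 186, 201 and 176 CPM in Alb livers (-0.60 ± 0.14, adjusted p = 0.00622), and was the only one of these kept in all 6 refits. Among 34 proteasome subunits 6 fell (17.6%, against 5.61% of all genes) and 1 rose (2.94%, against 4.1%), with a median of -0.032, again with 1 kept: Psma1 was at 14.4, 16.8 and 22.4 CPM in HLKO livers and 40.2, 43.2 and 37.2 CPM in Alb livers (-1.15 ± 0.20, adjusted p = 0.000533). The counts that fell were 1 to 8 for oxidative phosphorylation and 1 to 6 for the proteasome over the 6 refits. The lowest count came without Alb B for oxidative phosphorylation, and without Alb B or HLKO A for the proteasome. Of 72 cytosolic ribosomal proteins 1 rose (1.39%, against 4.1% of all genes) and 2 fell (2.78%, against 5.61%). Neither the 12 heat shock chaperones nor the 15 immediate early genes tested held a called gene (0 in edgeR and 0 in DESeq2), and 4 and 2 of them had an unadjusted p under 0.05.

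**Figure D4:**
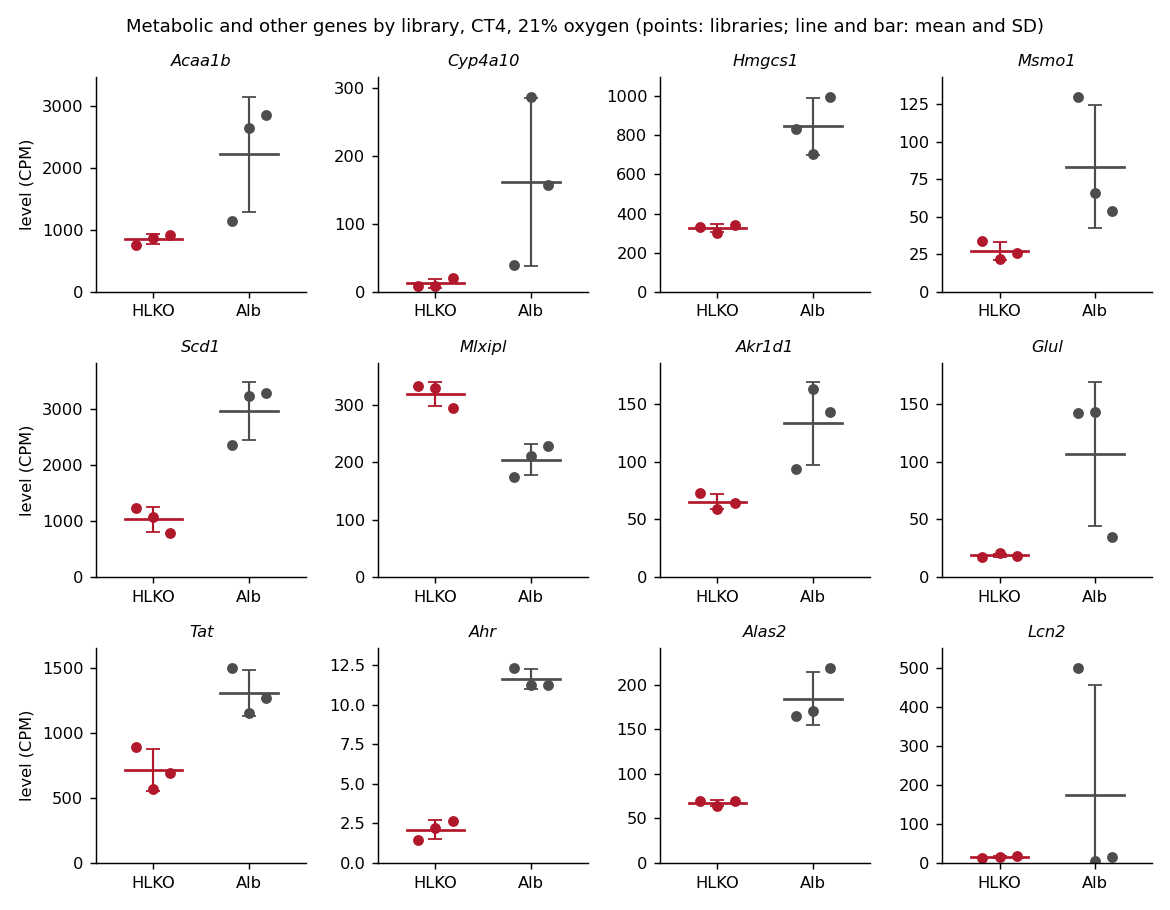
Levels in CPM (y axis, from 0, one scale per gene) of 12 genes in the 3 HLKO and 3 Alb libraries at CT4 and 21% oxygen; points are libraries A, B and C from left to right, and the line and bar give mean and SD. The groups are apart for Hmgcs1, Ahr and Alas2, Glul has Alb C at 34.7 CPM beside 142 and 143 CPM, and Lcn2 is high in Alb A only, at 501 CPM.

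Set beside the same genotypes in other libraries, part of the CT4 response recurred. At CT16 and 21% oxygen 338 genes were called (3.56%; 2.06% higher and 1.51% lower in HLKO livers), 95 of them also at CT4 in the same direction (10.3% of the 921 and 28.1% of the 338) and 8 in the opposite one. At CT4 and 6% oxygen 332 were called (3.5%; 1.67% higher and 1.83% lower), with 82 shared in the same direction (8.9% and 24.7%) and 9 in the opposite one. At CT16 and 6% oxygen 937 were called (9.88%; 4.18% higher and 5.7% lower), with 303 shared (32.9% and 32.3%) and 2 opposite, although 73 genes in place of 937 were called when only the compared groups were fitted. With 1 library left out, the count at CT16 and 21% was 169 and 147 without HLKO B and C and 126 and 163 without Alb A and C. At CT4 and 6% it was 183 and 210 without HLKO B and C and 173 without Alb C. At CT16 and 6% it was 317 and 417 without HLKO A and C and 337 without Alb A. These comparisons share no library with the one at CT4 and 21% oxygen. Of the 183 genes kept in all 6 refits, 52, 37 and 95 were called in the same direction at CT16 and 21%, CT4 and 6%, and CT16 and 6%, and 160, 142 and 170 had the same sign. The share with the same sign over all tested genes was not counted, so these sign counts have no background and nothing is drawn from them. A core of 31 genes was called in the same direction in all 4 comparisons, 18 higher and 13 lower. Of these, 11 (35.5%) lie on chromosome 12, which holds 3.51% of the tested genes with a position. Serpina3c moved by 5.85 ± 0.38 at CT16, 7.07 ± 0.42 at 6% oxygen and 6.61 ± 0.39 at CT16 and 6%, and Serpina1e by -3.95 ± 0.42, -4.08 ± 0.42 and -4.09 ± 0.42. Hmgcs1, also in that core, moved by -0.88 ± 0.23, -1.05 ± 0.23 and -1.02 ± 0.23, and Ahr by -1.76 ± 0.41, -1.99 ± 0.36 and -2.0 ± 0.37. At the other end, 550 of the 921 genes were called at CT4 and 21% oxygen and in none of the other 3 comparisons, which by itself does not show that they differ there.

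The difference itself was tested for time and for oxygen. Between CT4 and CT16 at 21% oxygen, the HLKO effect differed for 89 genes (0.939%; 42 or 0.443% more positive and 47 or 0.496% more negative at CT4), 47 of them among the 921. Without Alb CT16 A this count was 31, and without Alb B, Alb C or HLKO C of CT4 it was 45, 47 and 45. Tat, lower in HLKO livers at CT4, was at 3921 ± 668 CPM in HLKO livers and 1367 ± 440.0 CPM in Alb livers at CT16 (SD, n = 3 each). The change there was 1.52 ± 0.18 (adjusted p = 2.3e-06) and the difference -2.39 ± 0.26 (adjusted p = 1.43e-06). Lipg, endothelial lipase, was at 2.39, 2.85 and 4.62 CPM in HLKO livers and 11.3, 11.9 and 8.53 CPM in Alb livers at CT4 (-1.64 ± 0.36, adjusted p = 0.00546). Its CT16 means were 17.9 ± 5.50 CPM in HLKO livers and 4.67 ± 1.64 CPM in Alb livers (1.95 ± 0.32), a difference of -3.59 ± 0.48 (adjusted p = 6.59e-05). Both genes changed direction with the time. Xbp1 did so the other way, with -1.06 ± 0.21 at CT16 (adjusted p = 0.00295) and a difference of 1.81 ± 0.30 (adjusted p = 0.00156). Serpina9 (1.75 ± 0.53 at CT4, -2.33 ± 0.62 at CT16) and the hepatic factor Onecut1 (1.45 ± 0.46 and -1.77 ± 0.50) also changed sign, with differences of 4.08 ± 0.81 and 3.22 ± 0.68 (adjusted p = 0.00716 and 0.0132). At CT4, Serpina9 was not called without HLKO B, HLKO C, Alb B and Alb C (adjusted p up to 0.142). Onecut1 was not called there without HLKO B, HLKO C, Alb A, Alb B and Alb C (adjusted p up to 0.22), nor with DESeq2, where its adjusted p was 0.1. The CT16 value of Acaa1b was 0.17 ± 0.25, and that of Mug2 was -0.71 ± 0.45, against larger decreases at CT4 (differences -1.56 ± 0.36 and -3.42 ± 0.69, adjusted p = 0.0218 and 0.00799). Rad51b had a larger increase at CT16 (4.87 ± 0.27, difference -2.63 ± 0.45, adjusted p = 0.00197). Of the PPARA list, 5 of 39 members had a called difference with time and 8 with oxygen, against 0.939% and 1.58% of all genes. At CT16 and 21% oxygen the list median was 0.110, with 4 members called higher and 1 lower, against 2.06% and 1.51% of all genes. At CT4 and 6% oxygen it was 0.306, with 5 called higher and 0 lower, against 1.67% and 1.83% of all genes.

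Between 21% and 6% oxygen at CT4, the HLKO effect differed for 150 genes (1.58%; 0.591% more positive and 0.991% more negative at 21%), 88 of them among the 921. The count was 17 without Alb B of CT4 and 21% oxygen, 81 with only the compared groups fitted and 237 with DESeq2, and it was 64, 99 and 73 without HLKO A, B and C, 61 without Alb B of 6% oxygen, and 59 and 82 without HLKO A and B of 6% oxygen. Acaa1b had a log2 fold change of 0.18 ± 0.25 at 6% oxygen, with means of 1718 ± 103 CPM in HLKO livers and 1515 ± 95.5 CPM in Alb livers (difference -1.57 ± 0.36, adjusted p = 0.0228). Ugdh, Hsd17b13 and Aldh1a1, lower at 21%, had values of 0.18 ± 0.23, -0.24 ± 0.25 and -0.10 ± 0.19 at 6% (adjusted p of the difference 0.0251, 0.0186 and 0.0387). Camk2b, a calcium-dependent kinase subunit, was at 13.9, 13.6 and 8.25 CPM in HLKO livers and 4.24, 8.53 and 12.2 CPM in Alb livers at 21% oxygen. At 6% it was at 0.475 ± 0.421 CPM in HLKO livers and 11.2 ± 2.59 CPM in Alb livers (SD, n = 3 each), a difference of 5.16 ± 1.0 (adjusted p = 0.0139). Igsf11, an adhesion protein, had values of -1.11 ± 0.37 at 21% (adjusted p = 0.0521) and 2.23 ± 0.29 at 6% (difference -3.35 ± 0.47, adjusted p = 0.000462). Serpina1e and Hmgcs1 had no called difference with time or oxygen (adjusted p = 0.885 and 0.663, and 0.627 and 0.631).

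**Figure D5:**
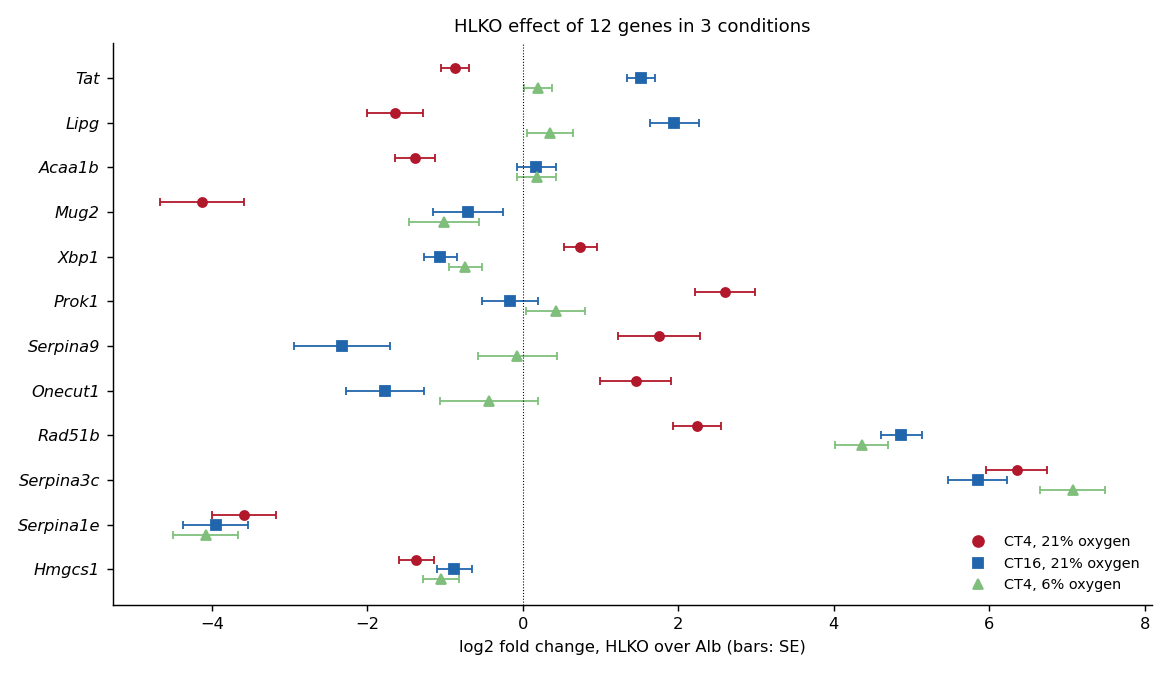
Log2 fold change of HLKO over Alb (x axis, bars are SE) of 12 genes (y axis) at CT4 and 21% oxygen, CT16 and 21% oxygen, and CT4 and 6% oxygen, each from its own 3 HLKO and 3 Alb libraries. Tat, Lipg, Acaa1b, Xbp1, Prok1, Serpina9 and Onecut1 have points on both sides of 0, while Serpina3c (5.85 to 7.07), Serpina1e (-3.59 to -4.08) and Hmgcs1 (-0.88 to -1.37) keep their side.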

How the data were processed

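Total RNA of livers was sequenced on an Illumina instrument. Per the submitters' processing notes, the tools were cutadapt, STAR 2.4.2a, HTSeq and DESeq2, and the build was mm10 (GRCm38); their settings and the strand rule of counting are not given in the sources used here, so reads of overlapping or antisense genes cannot be told apart. The authors deposited whole-number counts per gene for 36 libraries, and beside them a normalized signal, which equals the counts times 1 constant per library and was not tested. Of 39 listed samples, 3 are not analysed here.

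Counts were filtered in edgeR 4.0.16 (filterByExpr, minimum count 10), scaled by TMM and fitted with a quasi-likelihood model over all 36 libraries with 1 mean per group (R 4.3.3, limma 3.58.1). P-values are two-sided, with Benjamini-Hochberg adjustment over the 9483 genes of each comparison and a threshold of 0.05. SE is the absolute log2 fold change over the square root of F. The fit and its calls were checked on counts simulated from the fitted model, where each gene has the same spread in all libraries. Such counts hold no outlying library like Alb A, so that check does not cover how calls move when a library is left out. Alternatives were RLE scaling, no filter, DESeq2 1.42.0, only the compared groups, a replicate block, and leaving out each library.

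The labels do not say that libraries come from separate animals, so p-values measure only the spread between these libraries, which may be technical. Floors cover counting error only. Genes named are 8 HIF and clock genes, whatever their result; of genes kept in all 6 refits, averaging 5 CPM or more in either group and with no overlap, the 10 highest and 10 lowest changes and the 8 with the highest levels; up to 4 called members per list, and all of lists of at most 12; the 5 highest and 5 lowest of each difference test; and called genes within 10 Mb of Hif1a. Not every gene the rule allows is described, and some are not reported here. Members and lists were chosen with earlier results of these data known. Positions (11831 of 11873 genes, matched by symbol) and promoters are from RefSeq GRCm38.p6.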

Additional observations from a re-analysis of the deposited data

Results flagged for a closer look

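The HLKO effect at CT4 and 21% oxygen was tested against the effect at CT16 and 21% oxygen and against the effect at CT4 and 6% oxygen, and genes named above are listed here where the test of the difference itself passed an adjusted p of 0.05 (edgeR). Values are log2 differences, the effect at CT4 and 21% minus the other. The 6 libraries of CT4 and 21% oxygen enter both tests, so a gene listed in both is not shown by independent data. Against CT16 the difference was positive for Camk2b (4.28), Serpina9 (4.08), Onecut1 (3.22), Socs2 (2.94), Prok1 (2.76), Xbp1 (1.81), Fabp1 (0.88) and Actn1 (0.87). It was negative for Lipg (-3.59), Mug2 (-3.42), Rad51b (-2.63), Tat (-2.39), Urml (-1.68), Alas2 (-1.59), Acaa1b (-1.56), Pck1 (-1.09) and Tdo2 (-0.91). Against 6% oxygen the difference was positive for Gapdh (6.21), Camk2b (5.16), Prok1 (2.18), Manf (1.95), Xbp1 (1.49), Apoa1 (0.69) and Srsf5 (0.66). It was negative for Cpeb2 (-3.62), Igsf11 (-3.35), Mug2 (-3.12), Clstn3 (-2.92), Gsta2 (-2.39), Rad51b (-2.13), Lipg (-1.99), Urml (-1.84), Hsd17b13 (-1.66), Acaa1b (-1.57), Ugdh (-1.42), Tat (-1.06), Aldh1a1 (-1.03), Tdo2 (-0.92) and Ppm1a (-0.80). Gapdh was at 838 CPM in HLKO A at CT4 and 21% oxygen, and at 40.9 and 32.0 CPM in HLKO B and C. Its effect at 21% oxygen was 3.17 (adjusted p = 0.0765, edgeR), so the difference of 6.21 also rests on the libraries of 6% oxygen, whose levels are not reported here.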

How the results depend on the processing

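The count of 921 genes called at CT4 and 21% oxygen was 921 with RLE scaling, 888 with DESeq2, 801 without the filter and 743 with only the compared groups, where 34.7% of calls were higher in HLKO livers, against 42.2%. With 1 library left out it ran from 277 to 793. With 1 library left out, the counts ran from 126 to 298 at CT16 and 21%, 173 to 300 at CT4 and 6%, 317 to 1364 at CT16 and 6%, 31 to 95 for the difference with time and 17 to 186 for the difference with oxygen. With only the compared groups, 195 genes were called at CT4 and 6% oxygen, 73 at CT16 and 6%, and 81 for the difference with oxygen, which was 237 with DESeq2; the cause was not tested. The 183 genes kept in all 6 refits were 184 with RLE scaling and 136 with only the compared groups. Letters A to C are shared between groups, but same-lettered libraries deviated with correlations of 0.037, 0.043 and -0.062, so they were not treated as pairs; with the replicate block the counts were 849 at CT4 and 21%, 335, 317 and 883 in the other conditions in the order above, and 74 and 145 for the differences. Of 84 called genes named in the text, leaving out Pdia3, Canx, Apob and Pltp, 48 were kept in all 6 refits. The call was lost by 3 with DESeq2, 0 with RLE scaling, 2 without the filter, 8 with only the compared groups and 6 with the replicate block. It was lost by 21, 30 and 28 without HLKO A, B and C, and by 13, 28 and 13 without Alb A, B and C. Lcn2 alone among the 84 changed sign, to 0.53 without Alb A, and ran from -4.11 to 0.53 over the 6 refits.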
